A study of Gallus gallus with 28 samples.

Results

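SREBF2, HMGCS1 and STARD4 are 3 genes of cholesterol supply that were measured in chicken liver on 2-colour cDNA arrays, glass slides on which a liver sample and a reference compete for each printed clone. They were found by their gene symbols in the annotation of the printed spots. Each stands at 1 position of 3 spots, so they make up 3 of the 142 named genes and 9 of the 1728 spots. SREBF2 was printed in block 16, column 8, at rows 3, 6 and 9, HMGCS1 in block 3, column 9, at rows 2, 5 and 8, and STARD4 in block 13, column 12, at rows 3, 6 and 9. The samples were livers of a fat line and of a lean line of chickens (Gallus gallus), with 5 RNA pools of the fat line (pools 6 to 10) and 5 of the lean line (pools 1 to 5). Each pool held RNA of 4 birds. Pools 3 and 8 were each read on 2 arrays and the other pools on 3. All 28 arrays carried the same reference, a mix of the 10 pools. No source used here gives the age, sex or feeding state of the birds.

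The protein made from SREBF2, SREBP-2, waits in the membrane of the endoplasmic reticulum and is cut free when that membrane runs low in sterol. The freed part enters the nucleus and switches on the genes of cholesterol synthesis and uptake. Among its best known targets is HMGCS1, the cytosolic synthase that makes HMG-CoA for the mevalonate pathway. STARD4 encodes a small soluble protein that carries cholesterol between membranes, and in mammals its gene is also switched on by SREBP-2. The liver is the main site of fat synthesis in birds, and it also builds the lipoproteins that carry cholesterol and fat to other tissues. An array measures the RNA of these genes and does not show how much SREBP-2 has been cut free. In whole liver, fewer cells of a type and less RNA per cell cannot be told apart.

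The deposited values are ratios, taken as log2 of the liver sample (Cy5) over the reference (Cy3). That direction is likely from the order of the channels but is not stated, and if it ran the other way every sign below would turn, except those of correlations. Because each value is relative to the reference, levels of different genes cannot be set against each other. HMGCS1 was measured far more completely than its partners. It had a value at 79 of 84 spots and on all 28 arrays, with all 3 spots filled on 23 of them. SREBF2 had 43 of 84 spot values on 24 arrays, 10 of which rested on a single spot. STARD4 had 42 of 84 on 22 arrays, 8 of them from a single spot, and no value in lean pool 3. The second array of lean pool 3 stood apart from the rest, with an SD of 1.25 over its spots against 0.435 to 0.811 on the other arrays, and values without that pool or array stand beside the results that it moved most.

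Of the 3 genes SREBF2, the regulator, was the only one with a lower mean in the fat line. Its pool values were -0.01, 0.45, -0.08, 0.45 and -0.17 in fat pools 6 to 10, against -0.20, -0.055, 0.745, 0.39 and 0.72 in lean pools 1 to 5. The lines overlapped, since the lowest pool of all was lean pool 1 and the pools above 0 were fat pools 7 and 9 and lean pools 3, 4 and 5. The mean was 0.13 ± 0.30 in the fat line and 0.32 ± 0.44 in the lean line (SD, n = 5 each). The difference, fat minus lean, was -0.19 with a standard error of 0.23 (95% interval -0.69 to 0.31) and did not pass in limma (adjusted p = 0.755), and an exact permutation of the pools gave a two-sided p of 0.413. On a linear scale this is 0.877-fold, with an interval from 0.620 to 1.24. Pool 3 rested on 2 arrays with 1 spot value each, -0.15 and 1.64, and without its second array the difference was -0.01 (limma adjusted p = 0.971). Without pool 3 as a whole it was -0.08, and with each of the 10 pools left out in turn it ran from -0.32 (without lean pool 1) to -0.08.

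HMGCS1, the enzyme of the early mevalonate pathway, was 0.23, -0.32, 0.13, 0.49 and -0.03 in fat pools 6 to 10, against -0.04, 0.09, -0.60, -0.23 and -0.15 in lean pools 1 to 5. In the fat line 4 of 5 pools lay above the lean median, and 0 of 5 lean pools lay above the fat median, but the lines overlapped because fat pool 7 was lower than 4 of the lean pools. The means were 0.10 ± 0.30 in fat and -0.19 ± 0.26 in lean pools (SD, n = 5 each). The difference of 0.29 (standard error 0.18, 95% interval -0.11 to 0.68) is 1.22-fold, with an interval from 0.928 to 1.60. It did not pass in limma (adjusted p = 0.656), and the exact permutation p was 0.151 (two-sided). The value was 0.18 without pool 3 and 0.24 without the second array of that pool, and 0.19 without fat pool 9.

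STARD4, the cholesterol carrier, was 0.07, -0.46, 0.38, 0.25 and 0.14 in fat pools 6 to 10, against -0.30, 0.14, -0.34 and -0.09 in lean pools 1, 2, 4 and 5. Again 4 of 5 fat pools lay above the lean median, and fat pool 7 was the lowest pool of either line. The means were 0.08 ± 0.32 in fat pools (SD, n = 5) and -0.15 ± 0.22 in lean pools (SD, n = 4). The difference was 0.22 with a standard error of 0.19 (95% interval -0.20 to 0.65), or 1.17-fold from 0.870 to 1.57. It did not pass in limma (adjusted p = 0.695), with an exact permutation p of 0.262 (two-sided). Lean pool 2, the highest of its line, averaged 3 arrays that read 1.3, 0.06 and -0.94, and the highest and the lowest of these came from 1 spot each. Without fat pool 7 the difference was 0.36 (limma unadjusted p = 0.0474, adjusted p = 0.471), without fat pool 8 it was 0.15, and with the first array of every pool alone it was -0.01.

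**Figure D1:**
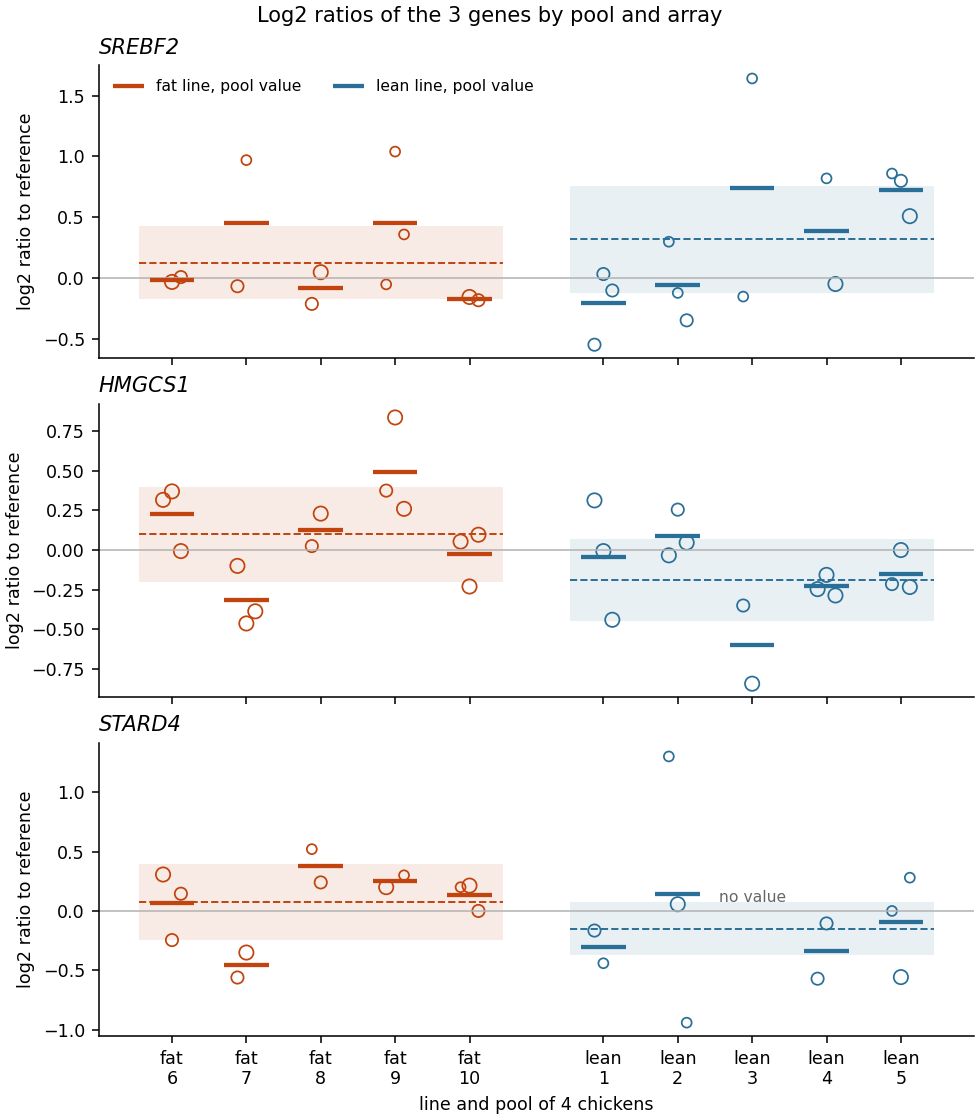
Log2 ratios of SREBF2, HMGCS1 and STARD4 to the common reference (y axis) by line and pool (x axis, fat pools on the left). Circles are arrays, larger where more of the 3 spots had a value, thick bars are pool values, and the dashed line and band are the line mean and SD over pools. The bands of the lines overlap in all 3 panels, and the widest array scatter is seen for SREBF2 in lean pool 3 (-0.15 and 1.64) and for STARD4 in lean pool 2 (1.3 to -0.94).

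None of the 3 genes was called at an adjusted p under 0.05, the threshold used for every comparison here. The same holds for every clone in the table: 0% of the 297 clones tested passed in limma, 9.43% (28) had an unadjusted p under 0.05, and the 3 genes were not among those. Among the 232 clones with a value in each of the 10 pools, the fat and lean ranges were separate for 2.59%, and neither SREBF2 nor HMGCS1 was one of them. With all pools and arrays, the intervals leave out rises above 1.60-fold for HMGCS1 and 1.57-fold for STARD4 in the fat line. These limits depend on the setting. On the log2 scale that of HMGCS1 was 0.68, and 0.91 with second arrays alone. That of STARD4 was 0.65, and 0.80 with first arrays alone. Whether the difference of SREBF2 departs from those of the other two genes was not tested.

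The other genes of cholesterol metabolism on the array were few. The list used here holds 51 gene symbols, with some genes under both an old and a current name. It runs from acetyl-CoA through lanosterol to sterol uptake, export and bile acid synthesis. Of its symbols, 8 were printed with a name, SREBF2, HMGCS1 and STARD4 among them, and all 8 could be tested. Fitted as genes, 0 of the 8 passed, and so did 0% of all 110 genes tested. Of the 8, 5 had a difference above 0 and 3 below 0, where 52.7% of the 110 genes tested were above 0. The median difference was 0.06 for the list and 0.03 for all genes tested, and that of the list was 0.11 without lean pool 3 and 0.14 without its second array. The counts and medians of the list thus include SREBF2, HMGCS1 and STARD4 themselves. Of the other genes in it, APOA1, LCAT and APOB were above 0 and LSS and LRP1 below 0. LSS, the lanosterol synthase that closes the sterol ring and, beside HMGCS1, the only synthesis enzyme among the 8, differed by -0.05 (standard error 0.19, limma adjusted p = 0.937), with means of -0.01 in fat and 0.03 in lean pools. The remaining genes, APOA1, LCAT, APOB and LRP1, act in the transport of cholesterol in the blood. APOA1, the chief apolipoprotein of HDL particles, had the widest difference of the list at 0.43, with a 95% interval from -0.27 to 1.13. It was printed at 9 positions, of which 1 could be tested, with values in 4 fat and 5 lean pools. LCAT, which esterifies cholesterol on those particles, was at 0.09, APOB of the very low density lipoproteins at 0.03 and the receptor LRP1 at -0.03, each with an interval that held 0.

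**Figure D2:**
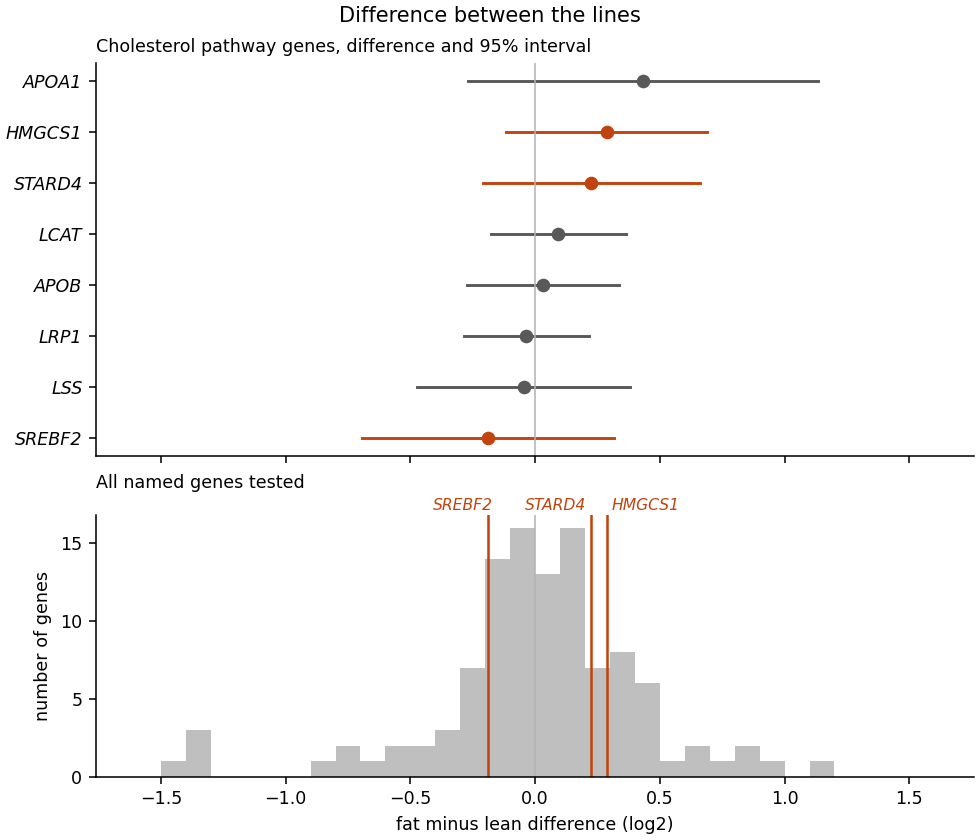
Fat minus lean difference in log2 ratio (x axis) for the 8 cholesterol pathway genes tested, with 95% intervals (top), and the number of genes at each difference among all 110 named genes tested (bottom). SREBF2, HMGCS1 and STARD4 are in orange; every interval shown spans 0, and the 3 genes lie at -0.19, 0.29 and 0.22 within the bulk of the distribution.

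The next question was how the 3 genes went together across pools. HMGCS1 and STARD4 did so most closely. They lay on the same side of 0 in 8 of the 9 pools where both were measured, with fat pool 10 as the exception. Fat pools 6, 8 and 9 and lean pool 2 were above 0 for both, and fat pool 7 and lean pools 1, 4 and 5 were below 0 for both. Agreement in sign was not counted for other pairs of named genes. Pearson's r was 0.78 (exact permutation p = 0.0115, and 0.0344 adjusted over the 3 pairs of genes) and Spearman's rho was 0.85 (exact permutation p = 0.00607, adjusted 0.0182), both two-sided over 9 pools. Among the 3403 pairs of the 83 named genes with values in those pools, 1.94% had an r at least as far from 0, and 1.09% had an r at least as high.

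Several checks lowered the evidence for this relation below the threshold. With each line's mean taken off, so that only differences between pools of a line count, r was 0.74 (exact permutation within lines, p = 0.0538, adjusted 0.161). Without fat pools 7 and 9, the farthest from the HMGCS1 median, r was 0.72 over 7 pools (exact permutation p = 0.0748). The r changed little, but the relation no longer passed with those pools left out. Leaving out single pools ended the call for pool 2, 4, 5 or 7, with r between 0.70 and 0.79. Both genes were read from the same arrays, and the part of shared array error in r was not tested. When HMGCS1 was taken from the first and STARD4 from the second array, r was -0.01 over 8 pools (exact permutation p = 0.988). With the arrays exchanged r was 0.53 over 9 pools (exact permutation p = 0.146). These versions use 1 array a gene and are thus noisier than the pool values. Over single arrays that held both genes r was 0.17, given as a description because arrays of a pool are not independent.

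SREBF2 had a negative r with either gene over pools, which passed no test over all pools. Its sign was opposite to that of HMGCS1 in 7 of 10 pools and to that of STARD4 in 7 of 9. Lean pool 3 had the highest SREBF2 value (0.745) and the lowest HMGCS1 value (-0.60), and fat pool 9 was high for both (0.45 and 0.49). Pearson's r of SREBF2 and HMGCS1 was -0.47 over 10 pools (permutation p = 0.172, adjusted 0.258; Spearman's rho -0.47, permutation p = 0.178). It was -0.40 with the line means taken off (exact permutation within lines, p = 0.277) and -0.23 without lean pool 3. Without lean pools 3 and 5, the farthest from the SREBF2 median, it was -0.09 over 8 pools. Without fat pool 9 it was -0.78 (exact permutation p = 0.0106, adjusted 0.0272), and pool 9 was the only pool whose removal brought it past the threshold. With STARD4 the r of SREBF2 was -0.33 over 9 pools (exact permutation p = 0.380), and Spearman's rho was -0.30 (exact permutation p = 0.437). The r was -0.30 with the line means taken off, and -0.08 without pools 5 and 7, here the farthest from the SREBF2 median. Leaving out the extreme pools of a gene narrows its range and can by itself bring r nearer to 0. The values without such pools thus cannot decide whether a relation was present. Among all pairs of named genes with values in the same pools, 20.4% had an r at least as far from 0 as SREBF2 and HMGCS1. For SREBF2 and STARD4 this share was 42.5%. Opposite signs were not counted for other pairs. The sign of either r was not the same in every version. With SREBF2 from the first and HMGCS1 from the second array r was 0.10 over the 7 pools that held both values. With the arrays exchanged it was -0.51 over 10 pools, so these versions differ in pools as well as in arrays. With SREBF2 from the second and STARD4 from the first array r was -0.62, while over single arrays that held both genes it was 0.02.

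**Figure D3:**
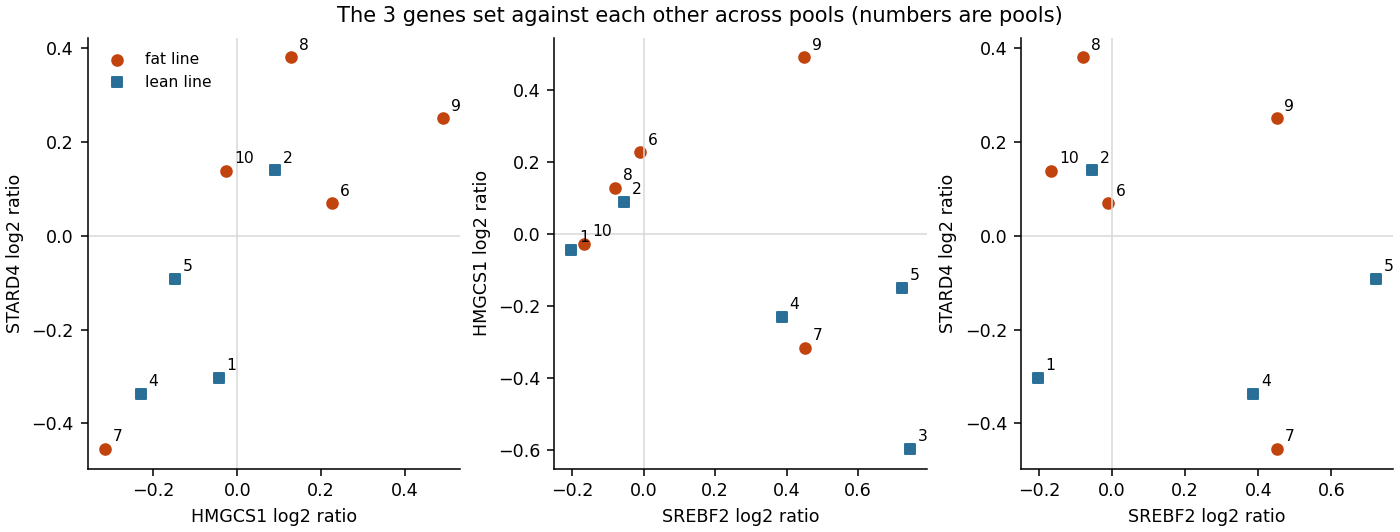
Pool log2 ratios of each pair of the 3 genes, labelled with pool numbers (circles, fat line; squares, lean line). HMGCS1 and STARD4 run from pool 7, low for both, to pools 8 and 9, high for both (r = 0.78, 9 pools). SREBF2 against either shows a negative r (-0.47 and -0.33). In its panel with HMGCS1, fat pool 9 lies away from the other points.

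Against the rest of the cholesterol genes, pairs are described by r without a test. SREBF2 and LSS had an r of -0.68 over 10 pools (-0.63 without pool 3), the lowest of SREBF2 with the 77 named genes compared. The lowest of 77 values is an extreme by choice, and the share of all pairs with so low an r was not counted. HMGCS1 and LSS had an r of 0.42 (0.29 without pool 3), and STARD4 and LSS 0.47 over 9 pools. LRP1, a receptor that takes up lipoprotein remnants, ran against both HMGCS1 (r = -0.64, and -0.56 without pool 3) and STARD4 (r = -0.67) and with SREBF2 (r = 0.40, and 0.26 without pool 3). LCAT ran with STARD4 (r = 0.75), and with HMGCS1 its r was 0.27 over 10 pools and 0.66 without pool 3. APOB, the scaffold of the particles in which liver exports fat and cholesterol, did likewise, with an r of 0.57 to STARD4 and of 0.14 to HMGCS1, the second again higher without pool 3 (0.59). Towards SREBF2 the r of APOB was -0.02, and -0.30 without pool 3, and that of LCAT was 0.24, and 0.10 without pool 3. APOA1 had an r of 0.44 to SREBF2 over 9 pools, -0.20 to HMGCS1 over 9 and -0.36 to STARD4 over 8.

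Outside the 3 genes themselves, the named genes whose pattern across pools was most like that of each were ranked by Pearson's r in the same way. For SREBF2 they were ENO1, an enolase of glycolysis (0.76, and 0.66 without pool 3), SEC61A1 of the protein channel of the endoplasmic reticulum (0.67, and 0.54 without pool 3) and SDHAF2, an assembly factor of succinate dehydrogenase (0.66, and 0.82 without pool 3, then above ENO1). For HMGCS1 they were the isocitrate dehydrogenases IDH1, the cytosolic form (0.80, and 0.77 without pool 3), and IDH2, the mitochondrial form (0.74, and 0.49 without pool 3). The tetraspanin TSPAN12 followed (0.68, and 0.54 without pool 3). The most opposed was THRA, a thyroid hormone receptor, at -0.67, and at -0.30 without pool 3. This order depends on pool 3: without it, LCAT (0.66) and APOB (0.59) were above IDH2 and TSPAN12, and LRP1 (-0.56) was more opposed than THRA. For STARD4, compared with 80 genes over 9 pools, they were EIF4EBP1, an inhibitor of translation initiation (0.79), LCAT (0.75) and catalase, CAT (0.73). EIF4EBP1 and CAT are means over positions, and r was not taken by position. The fat minus lean differences of these positions were 0.32 and -0.10 for EIF4EBP1 and 0.20 and 0.11 for CAT. PFKL, the liver phosphofructokinase of glycolysis, was most opposed to STARD4 at -0.92. All of these genes share arrays and the reference with the gene they are set against. They were also picked as the extremes of 77 or 80 genes, and such a choice favours values far from 0. The share of all pairs with an r as far from 0 was not counted for them. The lists are thus descriptions, and whether these genes vary together was not tested.

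A last comparison asked how far each gene varied between pools beyond the error between arrays. Within an array the 3 spots of a gene had a pooled SD of 0.32 for SREBF2, 0.26 for HMGCS1 and 0.35 for STARD4. For HMGCS1 the pooled SD was 0.28 between pools of a line and 0.23 between arrays of a pool. For SREBF2 the SD between arrays (0.51) was larger than that between pools (0.37), and so it was for STARD4 (0.50 against 0.28). These SDs are not like for like, because a pool value is a mean of 2 or 3 arrays. They therefore do not show that pools varied less than array error. The array SD of STARD4 was 1.12 in lean pool 2. In the fat pools it was 0.07 to 0.28, with an SD of 0.32 between those pools. In an F test over arrays in limma, HMGCS1 differed between fat pools at an unadjusted p of 0.0145 and STARD4 at 0.0209, but neither passed after adjustment (limma adjusted p = 0.163 and 0.176). In the fat line 22.8% of the 202 clones tested had an unadjusted p under 0.05 in this test and 0% passed. SREBF2 did not pass in the fat line either (limma adjusted p = 0.609). In the lean line, where 15.9% of 189 clones had an unadjusted p under 0.05 and 0.529% (1 clone) passed, neither HMGCS1 (limma adjusted p = 0.398) nor SREBF2 (0.415) passed, and STARD4 could not be tested for lack of values in pool 3.

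In order of their HMGCS1 values the pools ran 9, 6, 8, 2, 10, 1, 5, 4, 7 and 3, from 0.49 to -0.60. Of the 9 steps between neighbours 2 were larger than the standard error from arrays, that from pool 9 down to pool 6 and that from pool 7 down to pool 3. The order for SREBF2 was 3, 5, 7, 9, 4, 6, 2, 8, 10 and 1, from 0.745 to -0.20, and none of its 9 steps exceeded that error (0 of 9). STARD4 ran 8, 9, 2, 10, 6, 5, 1, 4 and 7, from 0.38 to -0.46, also with 0 of 8 steps beyond it. Neighbours in such an order lie close by construction, so these counts cannot show whether pools farther apart differed. Pool 7 stood low in its line for HMGCS1 and STARD4. Its SREBF2 value (0.4525) was level with that of pool 9 (0.45), a pool high for HMGCS1 and STARD4. That value of pool 7 averaged arrays at -0.065 and 0.97, the second from 1 spot.

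**Figure D4:**
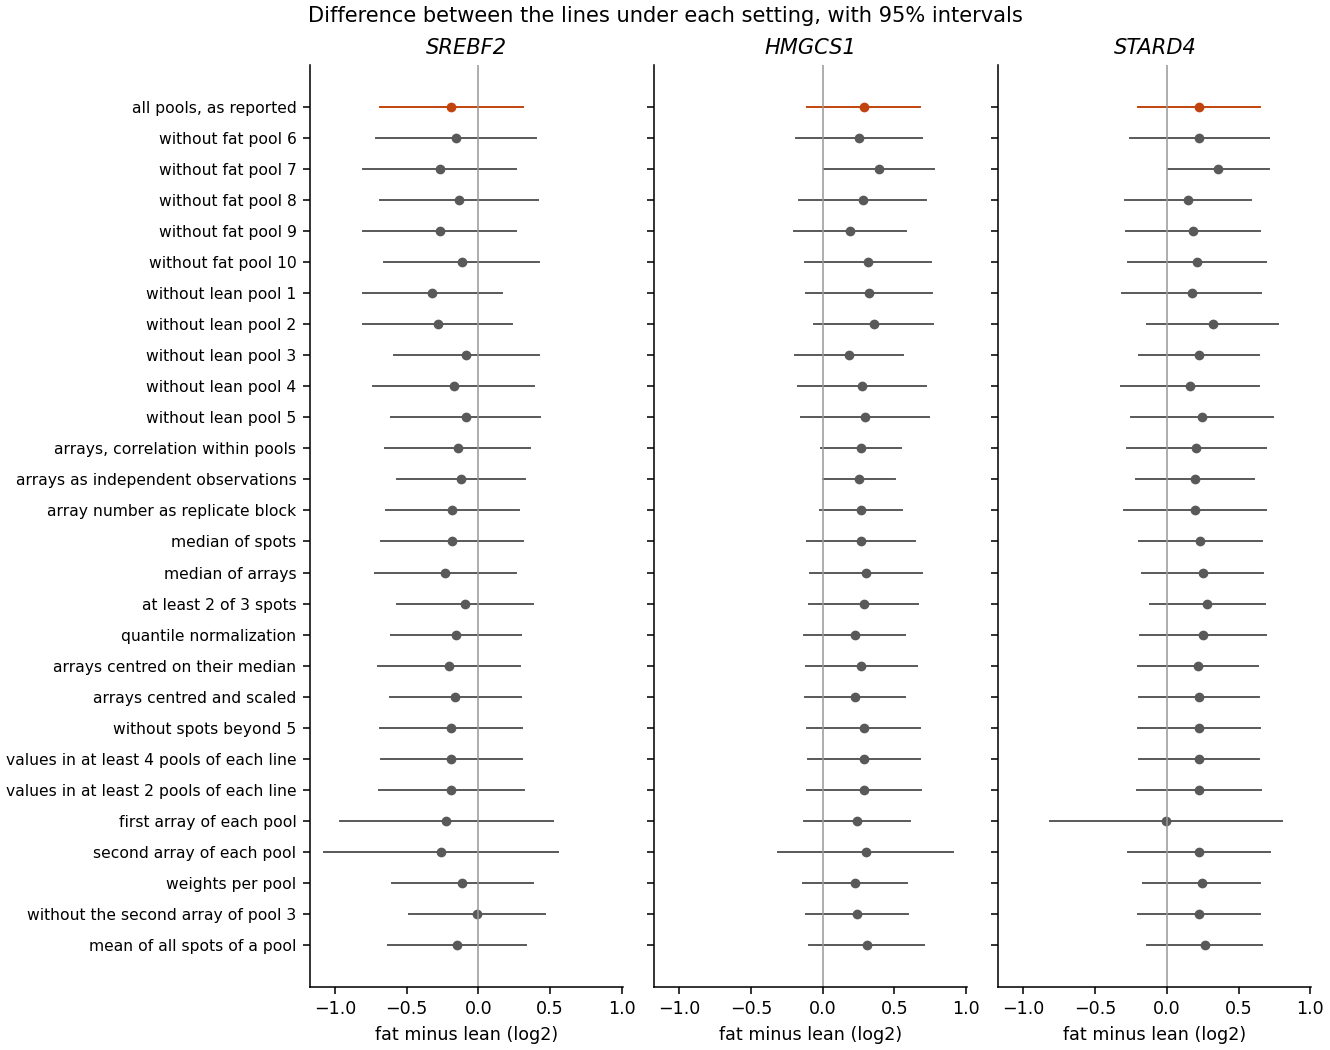
Fat minus lean difference of SREBF2, HMGCS1 and STARD4 (x axis, log2) with 95% intervals, for all pools, with each pool left out and under each other setting (rows). The value of SREBF2 lies below 0 and that of HMGCS1 above 0 in every row. SREBF2 is at -0.01 without the second array of pool 3, and STARD4 at -0.01 when each pool is represented by its first array. Intervals that leave out 0 are seen in 2 rows for HMGCS1 and 1 for STARD4. For both genes 1 such row is the fit without fat pool 7. The other row of HMGCS1 takes arrays as independent, though arrays of a pool carry the same RNA.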

How the data were processed

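The table deposited by the authors holds 1 log2 ratio per spot and array. The log base was inferred from its highest value, 14.01, which exceeds the largest ratio of 16-bit intensities on the natural log (11.1) or log10 (4.82) scale. No source used here states how background, weak spots or normalization were handled, or with which software. Array medians lay between -0.06 and 0.07. Between arrays, the median Pearson's r was 0.212 within a pool and 0.0354 between pools, and the lowest was -0.271. Per the labels' protocols, poly(A)+ RNA was labelled indirectly with Cy5, and no dyes were swapped. Values were averaged over the 3 spots of a position, then over the arrays of a pool, and grouped by the titles. Positions measured in 3 or more fat and 3 or more lean pools were tested with limma 3.58.1 in R 4.3.3 (two-sided moderated test, Benjamini-Hochberg over all 297), fat minus lean. In the fit of genes, tested positions of a gene were averaged. P-values of the reported differences measure the spread between pools of 4 birds, and those of correlations permute pools. Those of the F tests set pools against the spread between arrays of a pool, which carry the same RNA. Fits with arrays as observations, given as alternatives, take arrays as units. Correlations were tested in Python (numpy 2.4.6) by exact permutation, or with 100000 permutations for 10 pools. The fits were tested on simulated data. The members and lists were chosen with earlier results of these data known. Named genes were the 3 members, the measured pathway genes and, for each member, the 3 genes with the highest and the 1 with the lowest r across its pools. Of 28 cell type markers listed, the 21 of cells other than hepatocytes were at 0 named positions. Hepatocyte markers APOA1 (0.43), APOB (0.03) and AHSG (-0.30) did not pass in limma, and ratios to a liver reference cannot check the tissue. Alternatives covered averaging, normalization, filters, arrays as observations and each pool left out. Spot sequences and genome positions were not used here.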

Additional observations from a re-analysis of the deposited data

How the results depend on the processing

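HMGCS1 stayed above 0 and SREBF2 below 0 in all 28 alternatives each, though SREBF2 was at -0.01 without the second array of lean pool 3. Neither gene was called in any of them. Some of these alternatives could not change the 2 differences: the exact permutation, the removal of extreme spots and the filters on the number of pools. With each pool left out HMGCS1 lay between 0.18 and 0.39, SREBF2 between -0.32 and -0.08 and STARD4 between 0.15 and 0.36. STARD4 changed sign when each pool was represented by its first array (-0.00792). Without fat pool 7 the differences were 0.39 for HMGCS1 and 0.36 for STARD4 (limma unadjusted p = 0.0463 and 0.0474, adjusted p = 0.471 each). The count of clones called, 0 as reported, was 5 with arrays as observations correlated within pools, 8 with independent arrays and 6 with the array number as replicate block. Genes called, 0 of 110 as reported, were 4, 4 and 3 of 110 in these fits, and 1 of 89 where 2 of 3 spots were required. In the replicate block fit the differences were -0.18 for SREBF2, 0.27 for HMGCS1 and 0.20 for STARD4. Averaged over the pools of a line, deviations of same-numbered arrays had an r between the lines of -0.02, -0.07 and -0.12. Being averages, they cannot show whether some same-numbered arrays shared a batch. With the block 2 clones differed between fat pools, against 0 without it. For SREBF2 the unadjusted p of that limma F test was 0.0524 with the block and 0.357 without it (adjusted 0.225 and 0.609). The pathway list had a median of -0.15 with 3 of 7 genes above 0 on second arrays alone, and 0.01 to 0.11 with 4 to 6 genes above 0 with each pool left out. The r of SREBF2 and HMGCS1 was 0.10 over 7 pools with SREBF2 from array 1 and HMGCS1 from array 2. It was -0.51 over 10 pools the other way, and -0.785 to -0.23 with each pool left out. That of SREBF2 and STARD4 was 0.0218 over single arrays and -0.56 to -0.19 with each pool left out. That of HMGCS1 and STARD4 was 0.70 to 0.83 with each pool left out. It missed the threshold without pool 2 (0.783), 4 (0.745), 5 (0.790) or 7 (0.70). So it did with line means removed (0.743), without pools 7 and 9 (0.716), and with the genes on different arrays (-0.00574 over 8 pools and 0.525 over 9). Leaving out pools for r, and averaging all spots of a pool, were chosen after seeing the data. The cause of these changes was not tested. SREBF2 from array 1 and STARD4 from array 2 shared too few pools for a value. No F test was run without the second array of pool 3, which leaves that pool below 2 arrays, and pairs of positions give the same values. Missing spots and the number of pools limit the precision.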
